A study of Rattus norvegicus with 18 samples.

Results

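The 36 genes described here are standard markers of DNA replication and cell division, taken by symbol from the count table of a study of rat dorsal root ganglia. All 36 were found among the 25678 genes of that table, no member symbol was repeated there, and all 36 had enough reads to be tested beside 17043 genes in all. The ganglia hold the cell bodies of sensory neurons with their glia, vessels and resident immune cells. Messenger RNA was sequenced in 18 libraries, 3 in each of 6 groups. Ctrl animals were labelled Ctrl both for disease state and for treatment, and Ctrl_solvent animals were in the Ctrl state and given solvent. Sham_solvent and Sham_herb were Sham animals given solvent or herb, and NPP_solvent and NPP_herb were animals in the neuropathic pain state given solvent or herb. The herb is taken here to be the decoction of the study's title, Shentong Zhuyu, and by that title the study was about inflammatory genes and transcription factors. Strain, age, sex, the procedure behind the Sham and NPP states, dose, time of sampling and whether a library is 1 animal or a pool are not stated in the sources used here. With no word on whether replicates are separate animals, every p-value speaks to the scatter of these libraries and no more, and that scatter may be technical.

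A dividing cell copies its DNA in S phase and separates the copies in mitosis, and most of the genes that carry this out are switched on together and only in cycling cells. Mature sensory neurons have left the cell cycle for good. In a ganglion, transcripts of these genes are therefore read mainly as a sign of dividing glia, immune, vascular or connective tissue cells. Replication genes are classic targets of E2F transcription factors, released by the retinoblastoma protein. Many mitotic genes are controlled by the DREAM and MuvB complexes with B-Myb and FoxM1, through an element called the cell cycle genes homology region (CHR) and through CCAAT boxes bound by NF-Y. In bulk tissue, fewer dividing cells and less RNA per dividing cell cannot be told apart.

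Promoters were available in RefSeq's table for 29 of the 36 genes, on the assembly GRCr8, as windows of 300 bases (250 before the transcription start and 50 after it). The files themselves use mRatBN7.2, so these coordinates belong to the RefSeq window alone. Those shown are Mki67 and, by rank correlation with Mki67 across the 18 libraries, the 3 replication genes and the 3 division genes with a window whose levels were closest to it. Each window is written 5′ to 3′ on the strand of its gene. Capitals mark letters of the motifs searched on both strands: the CHR in its forms TTTGAA and also TTCGAA, the CCAAT box by its name's 5 letters, and the E2F site in the forms TTCCCGC plus the form TTGGCGC plus the form TTCGCGC plus the form TTGCCGC, where a run of capitals longer than 1 motif is a pair that touches or overlaps.
Mki67, chr1:199952544-199952843 (- strand): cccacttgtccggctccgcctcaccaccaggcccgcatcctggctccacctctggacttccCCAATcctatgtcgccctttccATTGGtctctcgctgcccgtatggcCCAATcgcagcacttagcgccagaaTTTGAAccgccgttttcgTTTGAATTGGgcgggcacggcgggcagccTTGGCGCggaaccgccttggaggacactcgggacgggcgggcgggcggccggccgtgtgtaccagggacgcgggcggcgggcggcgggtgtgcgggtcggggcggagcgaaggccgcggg
Mcm6, chr13:42404303-42404602 (- strand): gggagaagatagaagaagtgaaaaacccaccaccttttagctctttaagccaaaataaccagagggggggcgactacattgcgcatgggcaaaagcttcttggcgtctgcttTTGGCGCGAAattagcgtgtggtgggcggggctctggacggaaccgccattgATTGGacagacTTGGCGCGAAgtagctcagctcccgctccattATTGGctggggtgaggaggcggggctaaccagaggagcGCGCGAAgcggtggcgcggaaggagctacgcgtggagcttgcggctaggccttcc
Mcm2, chr4:122918045-122918344 (- strand): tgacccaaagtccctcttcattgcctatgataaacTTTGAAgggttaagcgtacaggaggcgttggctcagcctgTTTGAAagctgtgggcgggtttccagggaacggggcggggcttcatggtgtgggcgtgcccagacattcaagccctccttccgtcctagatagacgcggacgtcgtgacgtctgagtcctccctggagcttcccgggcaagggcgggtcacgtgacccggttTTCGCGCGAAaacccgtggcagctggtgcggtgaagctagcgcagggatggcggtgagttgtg
Tk1, chr10:103544728-103545027 (- strand): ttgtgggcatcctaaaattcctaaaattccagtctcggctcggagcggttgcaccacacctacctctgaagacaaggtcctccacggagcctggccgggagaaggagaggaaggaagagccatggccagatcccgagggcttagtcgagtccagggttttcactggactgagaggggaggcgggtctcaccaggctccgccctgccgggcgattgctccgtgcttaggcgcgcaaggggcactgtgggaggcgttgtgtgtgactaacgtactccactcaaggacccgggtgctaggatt
Bub1b, chr3:126016817-126017116 (+ strand): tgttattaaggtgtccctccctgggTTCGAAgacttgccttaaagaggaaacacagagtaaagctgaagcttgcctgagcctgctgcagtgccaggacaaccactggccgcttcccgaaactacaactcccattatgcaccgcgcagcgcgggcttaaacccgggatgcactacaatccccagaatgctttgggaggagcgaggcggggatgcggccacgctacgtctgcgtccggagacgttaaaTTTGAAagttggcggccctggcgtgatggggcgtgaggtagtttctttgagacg
Cenpe, chr2:226310807-226311106 (+ strand): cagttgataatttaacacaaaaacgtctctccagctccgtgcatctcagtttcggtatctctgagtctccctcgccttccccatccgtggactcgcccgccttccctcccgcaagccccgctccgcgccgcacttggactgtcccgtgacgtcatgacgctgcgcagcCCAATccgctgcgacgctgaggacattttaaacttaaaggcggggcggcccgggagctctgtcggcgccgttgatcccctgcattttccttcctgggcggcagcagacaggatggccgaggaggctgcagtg
Top2a, chr10:84473044-84473343 (- strand): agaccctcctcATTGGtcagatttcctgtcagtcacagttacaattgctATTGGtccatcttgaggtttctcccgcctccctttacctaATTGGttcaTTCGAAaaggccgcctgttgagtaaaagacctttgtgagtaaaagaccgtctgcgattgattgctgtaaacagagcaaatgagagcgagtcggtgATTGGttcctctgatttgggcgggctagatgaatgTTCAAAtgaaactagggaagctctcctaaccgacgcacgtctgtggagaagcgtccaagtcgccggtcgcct

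The Mki67 window held 2 CHR matches, 4 CCAAT boxes and 1 E2F match, and its second CHR overlapped a CCAAT box. Top2a held 2 CHR matches and 4 CCAAT boxes, and Bub1b 2 CHR matches alone. In Mcm6 there were 5 E2F matches and 2 CCAAT boxes, with 4 of the E2F matches in overlapping pairs on opposite strands. Mcm2 held 2 CHR and 2 E2F matches, Cenpe a single CCAAT box, and Tk1 none of the letters searched in this window. Over the 29 windows, a CHR match was present in 16 (55.2%), against 14.1% of the windows of 12748 tested genes and 19.7% of all 33469 windows in the table. CCAAT boxes were in 22 (75.9%, against 37% and 37.5%), and E2F matches in 11 (37.9%, against 15.8% and 9.52%). By role, E2F matches were in 7 of the 9 replication windows and 4 of the 20 others, while CHR matches were in 3 of the 9 and 13 of the 20. A match is a description of letters and not a bound site.

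Depth ran from 18170925 to 50289652 counted reads per library, and the 36 genes together took 3158 to 8021 of them. Sensory neuron markers fitted the label of the tissue, since 14 of them summed to 28657 CPM or more in every library (CPM is the depth-scaled read count, with library sizes adjusted by TMM). Some libraries stood apart from their group. Reads of the Y-linked Eif2s3y and Kdm5d were 1 and 0 in Ctrl replicate 2 and 0 and 0 in Ctrl replicate 3, while each of the other 16 libraries had at least 2180 of Eif2s3y. A list of 9 genes of injured sensory neurons summed to 601 CPM in Ctrl_solvent replicate 3, between NPP_solvent replicate 1 (508 CPM) and NPP_herb replicate 2 (637 CPM). In the libraries labelled NPP_solvent replicate 3 and NPP_herb replicate 3 the same list summed to 161 and 167 CPM, in or just below the range of the Ctrl group (163 to 168 CPM). Sham_herb replicate 3 (374 CPM) was above NPP_herb replicate 1 (338 CPM) and NPP_solvent replicate 2 (310 CPM). Results that rest on these libraries are given with and without them.

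The genes were expressed at low levels, and over a wide range. Per length, in the authors' FPKM (fragments scaled to transcript length and library size), Pcna had the highest median level over the 18 libraries, at 30.3. It encodes the sliding clamp of DNA polymerases, which also serves DNA repair in cells that do not divide. Rrm1, the large subunit of ribonucleotide reductase, followed at 7.42 FPKM, then Mcm4 at 3.61, Mcm7 at 3.21, Aurka at 2.67 and Tyms, which makes thymidylate, at 2.29. The S-phase partner of Rrm1, Rrm2, had a median of 0.37 FPKM. Mki67, whose protein Ki-67 coats mitotic chromosomes and is the usual histological mark of cycling cells, had 0.27 FPKM, Top2a 0.32, Cdk1 1.29 and Ube2c 1.25. The lowest were Bub1b at 0.08 and Cenpf at 0.07 FPKM. Over all libraries together, reads per gene ran from 267 for Bub1b to 20099 for Pcna. Bub1b had 0 reads in NPP_herb replicate 2, which allows up to 0.167 CPM there, counting error alone considered. The 36 genes lie on 15 chromosomes, 7 of them on chromosome 3 and 5 each on chromosomes 1 and 10.

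Across the 6 groups, Ctrl_solvent had the highest mean for 31 of the 36 genes. Ctrl was highest for Pimreg, NPP_herb for Mcm4, Rrm1 and Prc1, and Sham_herb for Tyms. The lowest means were spread over Sham_herb (12 genes), Sham_solvent (11), NPP_solvent (7), NPP_herb (4) and Ctrl (2). In an edgeR quasi-likelihood test of any difference among the groups, 0 of 36 genes had an adjusted p (Benjamini-Hochberg over 17043 genes) under 0.05, as did 0 genes in the whole table (0%). At an unadjusted p under 0.05 there were 18 of 36, against 10.2% of all genes tested. The smallest p belonged to Aurkb (adjusted p = 0.157), the kinase of the chromosomal passenger complex. Mcm5 and Ube2c (both with an adjusted p of 0.199), Nusap1 (adjusted p = 0.239) and Bub1b (adjusted p = 0.311) came next in edgeR. DESeq2 on the same counts called 475 genes with an adjusted p under 0.05, 8 of them among the 36: Aurkb, Mcm5, Ube2c, Nusap1, Bub1b, Mki67, Pimreg and Top2a. The unadjusted count of 18 was 10 without Ctrl_solvent replicate 1 (1228 of 17410 genes tested) and 8 without Ctrl_solvent replicate 3 (1482 of 17393). Without Ctrl_solvent replicate 2 edgeR called 319 genes, 6 of them members.

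**Figure D1:**
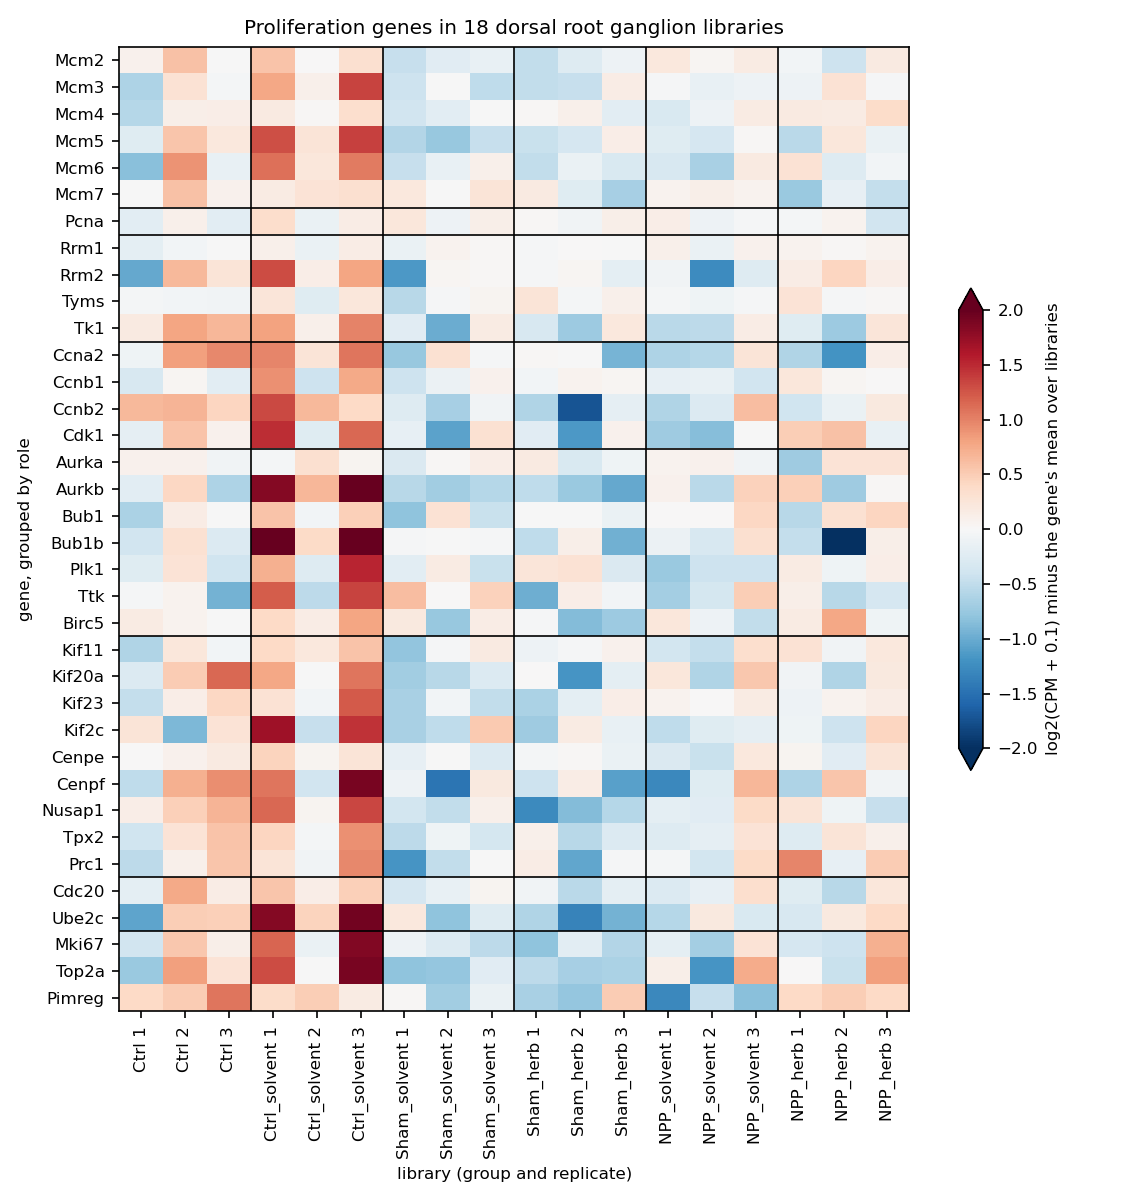
Levels of the 36 genes (rows, grouped by role) in the 18 libraries (columns), as log2(CPM + 0.1) relative to the average of each gene; red is above and blue below it. Ctrl_solvent replicates 1 and 3 are red in most rows, Ctrl_solvent replicate 2 is not, and Pcna, Rrm1, Tyms and Aurka are pale throughout.

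The high mean of Ctrl_solvent came from 2 of its 3 libraries. Ctrl_solvent replicate 1 or 3 was the highest of all 18 libraries for 27 of the 36 genes, as it was for 15.4% of all genes tested. They were the 2 highest libraries for 21 genes (5.68% of all genes): Mcm3, Mcm5, Mcm6, Rrm2, Tk1, Ccna2, Ccnb1, Cdk1, Aurkb, Bub1, Bub1b, Plk1, Ttk, Kif11, Kif2c, Cenpe, Cenpf, Nusap1, Ube2c, Mki67 and Top2a. As a summary, the mean over the 36 genes of log2 CPM relative to that gene's average in the 18 libraries was 0.85, 0.05 and 0.98 in Ctrl_solvent replicates 1, 2 and 3. In Ctrl it was -0.25, 0.36 and 0.19. Sham_solvent had -0.36, -0.32 and -0.06, and Sham_herb -0.28, -0.38 and -0.26. In NPP_solvent it was -0.26, -0.33 and 0.13, and in NPP_herb -0.05, -0.15 and 0.13. The next highest after the pair was Ctrl replicate 2. NPP_solvent and Sham_solvent overlapped, while every NPP_herb library was above every Sham_herb library.

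Mki67, on chromosome 1, had 8.22, 3.27 and 13.3 CPM in Ctrl_solvent replicates 1, 2 and 3 and 2.76, 5.29 and 3.92 in Ctrl. Sham_solvent libraries had 3.37, 2.97 and 2.50 CPM and Sham_herb libraries 2.02, 3.11 and 2.39. In NPP_solvent Mki67 was at 3.14, 2.22 and 4.38 CPM, and in NPP_herb at 2.85, 2.68 and 5.97. Outside the 2 high Ctrl_solvent libraries all groups overlapped, with replicate 3 the highest in both NPP groups. Top2a, on chromosome 10, encodes the topoisomerase that untangles sister chromatids. Its levels were 4.92, 1.92 and 7.44 CPM in Ctrl_solvent and 1.11, 3.49 and 2.35 in Ctrl. They were 1.06, 1.08 and 1.62 CPM in Sham_solvent, 1.30, 1.18 and 1.21 in Sham_herb, 2.09, 0.80 and 3.29 in NPP_solvent, and 1.93, 1.39 and 3.48 in NPP_herb. The same 2 Ctrl_solvent libraries were the highest, and replicate 3 was again the highest of each NPP group.

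**Figure D2:**
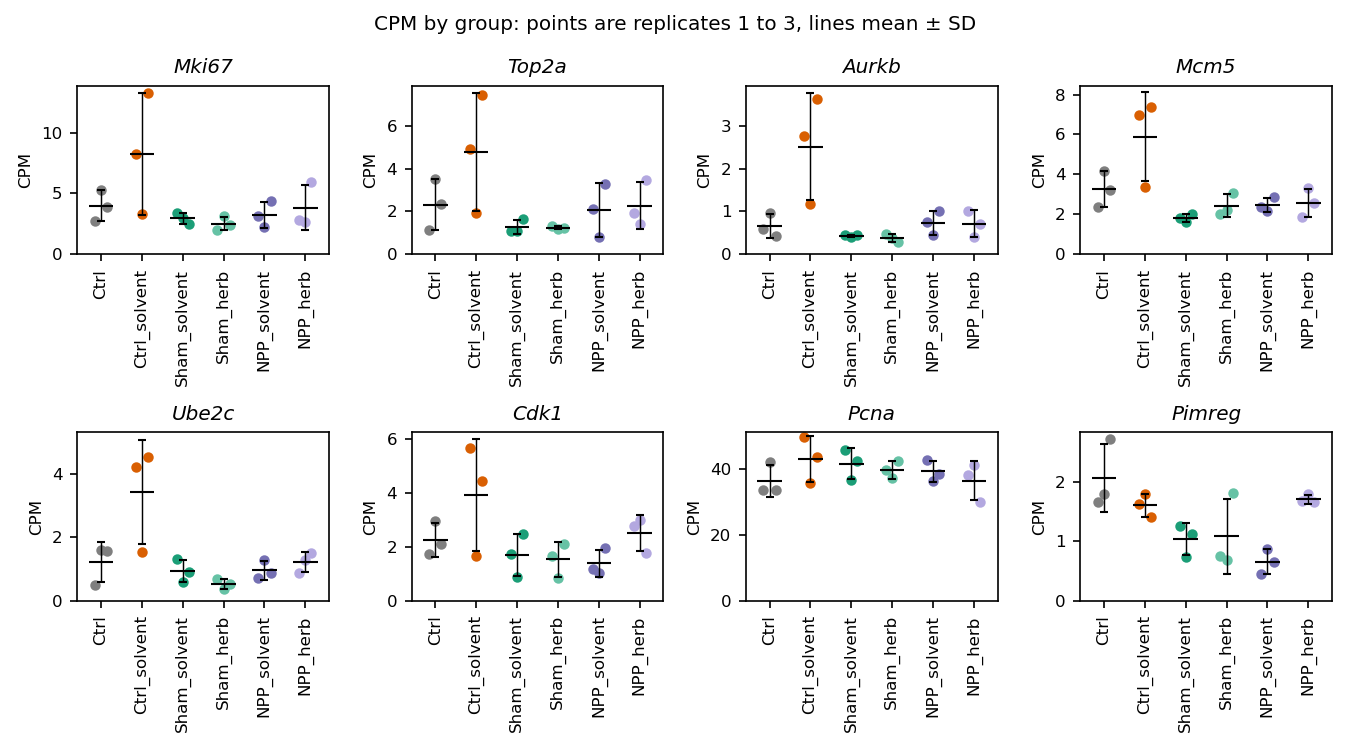
CPM of 8 of the genes in the 6 groups; points are the 3 libraries of a group, in the order of their replicate numbers, and lines are the mean ± SD. In Mki67, Top2a, Aurkb, Mcm5, Ube2c and Cdk1 Ctrl_solvent replicates 1 and 3 lie above every other library, whereas Pcna is level over the groups and Pimreg is lowest in NPP_solvent.

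The question of whether the Sham state with solvent differed from the Ctrl state with solvent gave the widest differences. All 36 genes had a negative log2 fold change (48.4% of all genes were above 0), with a median of -0.97 against -0.01 over all genes tested. None reached an adjusted p under 0.05 in edgeR (0 of 36, and 0% of all genes), and DESeq2 called 35 genes. Without adjustment, 22 of 36 had a p under 0.05 and were lower in Sham_solvent, against 4.47% of all genes. The libraries of the 2 groups did not overlap for 17 of 36, all lower in Sham_solvent, against 4.12% of all genes. The smallest adjusted p among the 36 was 0.458.

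Among the replication genes, Mcm5 (chromosome 19), a subunit of the helicase that opens DNA at origins, had 6.98, 3.36 and 7.35 CPM in Ctrl_solvent. It had 1.83, 1.61 and 1.99 CPM in Sham_solvent, for a log2 fold change of -1.70 ± 0.31 (SE, adjusted p = 0.458, edgeR). All 3 Ctrl_solvent libraries were above all 3 Sham_solvent libraries, and DESeq2 gave an adjusted p of 0.00105. Mcm3, of the same helicase, was at 5.52, 3.41 and 8.22 CPM in Ctrl_solvent and 2.36, 3.14 and 2.20 in Sham_solvent (-1.14 ± 0.31). Mcm6 had 7.47, 4.03 and 7.13 CPM against 2.48, 3.08 and 3.68, and Mcm2 9.47, 6.41 and 7.96 CPM against 4.59, 5.44 and 5.74 (-0.59 ± 0.20), again with no overlap. Mcm4 (-0.37 ± 0.18) and Mcm7 (-0.10 ± 0.20) did not reach an unadjusted p of 0.05. In the supply of nucleotides, Rrm2 (-1.12 ± 0.46) and Tk1, the thymidine kinase of S phase (-0.98 ± 0.36), had an unadjusted p under 0.05 (adjusted p = 0.715 and adjusted p = 0.640, edgeR). Rrm1 (-0.05), Tyms (-0.24 ± 0.16) and the clamp Pcna (-0.05 ± 0.14) were close to 0, although they were the members with the most reads.

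Among the mitotic genes, Aurkb (chromosome 10) had 2.76, 1.16 and 3.63 CPM in Ctrl_solvent and 0.447, 0.393 and 0.439 in Sham_solvent. Its log2 fold change was -2.55 ± 0.48 (adjusted p = 0.458, edgeR), and even Ctrl_solvent replicate 2 was above every Sham_solvent library. DESeq2 gave Aurkb an adjusted p of 0.00268. Ube2c (chromosome 3), which hands ubiquitin to the anaphase-promoting complex at mitotic exit, had 4.22, 1.54 and 4.51 CPM in Ctrl_solvent and 1.30, 0.589 and 0.912 in Sham_solvent (-1.88 ± 0.48, adjusted p = 0.459, edgeR). Top2a followed at -1.92 ± 0.54 (adjusted p = 0.538) and Mki67 at -1.48 ± 0.43 (adjusted p = 0.552), the latter with overlapping groups, Ctrl_solvent replicate 2 being inside the Sham_solvent range. The mitotic kinase Cdk1 was at 5.68, 1.65 and 4.46 CPM in Ctrl_solvent and 1.75, 0.884 and 2.47 in Sham_solvent (-1.21 ± 0.46), and its partner Ccnb1 at 8.60, 3.38 and 7.74 against 3.37, 4.16 and 4.80 (-0.66 ± 0.26). In both, Ctrl_solvent replicate 2 was inside the Sham_solvent range. Of the 9 motor and spindle genes, 7 had an unadjusted p under 0.05, all lower in Sham_solvent. Outside those 9, such a p was found for 3 of 7 mitotic kinase and checkpoint genes and 1 of 2 mitotic exit genes. It was also found for 3 of 4 genes of cyclins and their kinase and 2 of 3 chromosome structure and marker genes. Among those that did not reach it were Aurka, the centrosomal kinase, and Pimreg (-0.65 ± 0.38).

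The size of these differences depended on the 2 high libraries. Leaving out Ctrl_solvent replicates 1 and 3 together kept 1 library in that group, and the pair was picked once their levels were seen. A smaller difference was therefore built into this choice. The median over the 36 genes was then -0.28, and 27 of 36 stayed below 0. Without replicate 3 alone the count of 22 at an unadjusted p under 0.05 was 12 (549 of 17393 genes in either direction), and the median -0.65. Without Ctrl_solvent replicate 2, the library that was not high, edgeR called 252 genes, 8 of them among the 36: Mcm5, Aurkb, Mki67, Ccnb1, Ube2c, Mcm3, Nusap1 and Top2a. The 2 high libraries held 18170925 and 21987007 reads, and Ctrl_solvent replicate 2 held 36885633 reads.

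Solvent was addressed by the comparison of Ctrl_solvent with Ctrl, which shares the Ctrl_solvent libraries with the comparison above. Ctrl replicates 2 and 3 had almost no Y-linked reads, while every Ctrl_solvent library had many. For those 2 Ctrl libraries, solvent and that difference cannot be told apart in this comparison. Here 35 of 36 genes had a positive log2 fold change (51.1% of all genes), with a median of 0.50 against 0.01 over all genes. In edgeR 0 of 36 had an adjusted p under 0.05, as had 0% of all genes, while DESeq2 called 471 genes, of which Aurkb was a member (adjusted p = 0.0108). Without adjustment, 10 of 36 had a p under 0.05 and were higher in Ctrl_solvent, against 8.33% of all genes. The libraries did not overlap for 2 of 36, Aurkb and Bub1b, against 8.45% of all genes in that direction, so by separation of the libraries the set did not exceed the background. Aurkb had 0.589, 0.970 and 0.424 CPM in Ctrl, below its Ctrl_solvent values (1.93 ± 0.47, adjusted p = 0.134, edgeR). Bub1b (chromosome 3), which encodes the spindle checkpoint protein BubR1, was at 2.33, 0.568 and 1.97 CPM in Ctrl_solvent and 0.295, 0.534 and 0.327 in Ctrl (2.06 ± 0.66, adjusted p = 0.191, edgeR). Ube2c (1.48 ± 0.48), Mcm3 (0.93 ± 0.31) and Mcm5 (0.85 ± 0.30) completed the 5 smallest. Mki67 was at 1.05 ± 0.42, Ccnb1 at 0.69 ± 0.26, Top2a at 1.04 ± 0.52, Cdk1 at 0.79 ± 0.46, Rrm2 at 0.74 ± 0.46 and Mcm6 at 0.71 ± 0.36. Mcm2 (0.08 ± 0.20), Tyms (0.15 ± 0.16), Pcna (0.24 ± 0.14) and Pimreg (-0.36 ± 0.37) did not separate the groups.

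Without Ctrl_solvent replicates 1 and 3 together, which left 1 library in that group, the median turned to -0.15 and 14 of 36 genes stayed above 0. Leaving out 1 library moved the count of 10 at an unadjusted p under 0.05. It was 3 without Ctrl_solvent replicate 3 (1234 of 17393 genes in either direction) and 6 without Ctrl_solvent replicate 1 (1504 of 17410). It was also 6 without Ctrl replicate 1 (2317 of 17470) and 16 without Ctrl_solvent replicate 2 (3231 of 17388). The median of 0.50 was 0.24 without Ctrl_solvent replicate 3 and 0.31 without Ctrl replicate 1. With only the groups compared in the fit the count was 5 (1835 of 15877 genes in either direction). Without Ctrl_solvent replicate 2 edgeR called 734 genes, among them 8 members: Ccnb1, Aurkb, Mcm3, Ube2c, Mcm5, Mki67, Bub1b and Plk1. Without Ctrl replicates 2 and 3, the 2 libraries with almost no Y-linked reads, 1 Ctrl library was left and the median was 0.95.

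**Figure D3:**
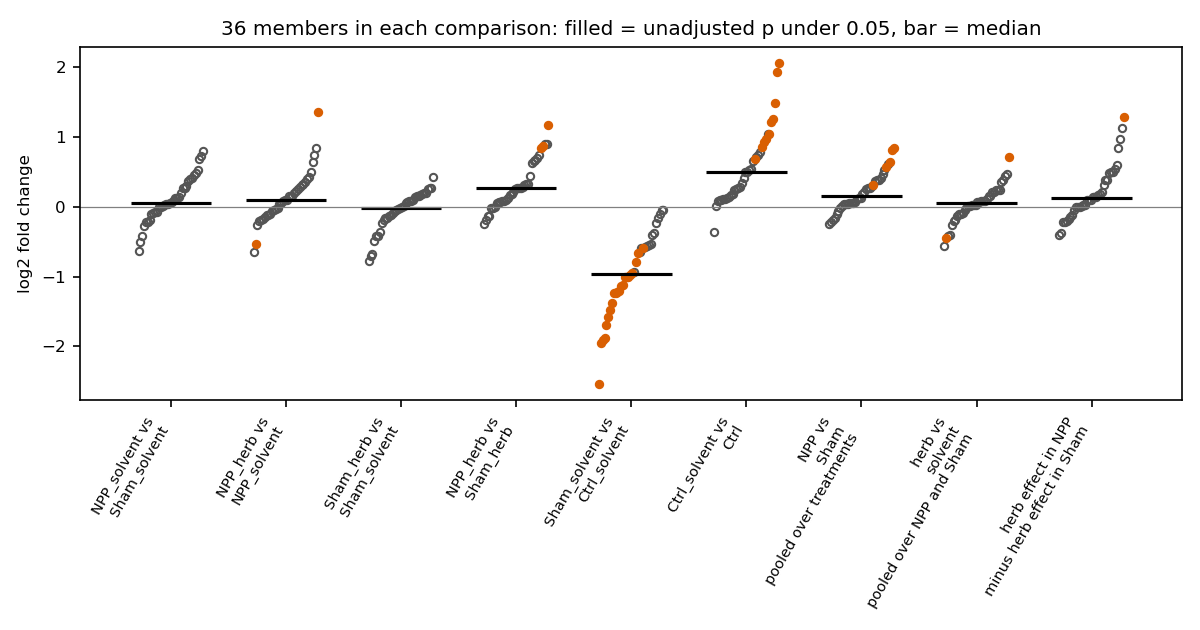
Log2 fold changes of the 36 genes in each of 9 contrasts; filled points have an unadjusted p under 0.05 (edgeR), open points do not, and bars are medians over the 36 genes. The points of Sham_solvent against Ctrl_solvent are all below 0 (median -0.97) and those of Ctrl_solvent against Ctrl are nearly all above it (median 0.50), while the medians of the contrasts among the NPP and Sham groups lie between -0.02 and 0.26.

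Lymphocyte and macrophage markers moved with the same 2 libraries. In a list of 14 B and T lymphocyte genes, 7 were highest in Ctrl_solvent replicate 1 or 3. The T cell receptor subunit Cd3e had 4.17, 0.325 and 3.81 CPM in Ctrl_solvent replicates 1, 2 and 3 and at most 0.949 CPM in the other groups. Cd8a, of cytotoxic T cells, had 7.41, 0.676 and 7.79 CPM against at most 1.10 elsewhere. The B cell gene Ms4a1 was at or near 0 in Ctrl_solvent (0, 0.298 and 0.0437 CPM in replicates 1, 2 and 3), and the B cell precursor gene Vpreb1 was at 0 in all 3. Summed over the list, the level ran from 30.6 to 69.9 CPM in Ctrl_solvent. It was 15.7 to 29.6 CPM in Ctrl, 20.6 to 26.6 in Sham_solvent, 16.2 to 25.6 in Sham_herb, 18.4 to 24.5 in NPP_solvent and 21.7 to 26.3 in NPP_herb.

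Of 12 macrophage genes, 9 were highest in one of the 2 libraries. C1qa, a complement component made by resident macrophages, was at 116, 24.3 and 97.9 CPM in Ctrl_solvent. The list summed to 164 to 529 CPM in Ctrl_solvent, 83.3 to 149 in Ctrl, 168 to 285 in Sham_solvent, 91.5 to 181 in Sham_herb, 118 to 276 in NPP_solvent and 116 to 148 in NPP_herb. Of 13 neutrophil and marrow granulocyte genes, 0 were highest in Ctrl_solvent replicate 1 or 3. They summed to 175, 81.6 and 55.2 CPM in Ctrl_solvent and to 91.9, 428 and 58.5 CPM in Ctrl. In Ctrl_solvent against Ctrl all 13 had a negative log2 fold change (median -1.12), 1 of them with an unadjusted p under 0.05. Erythroid markers went the other way within Ctrl_solvent: the 14 genes summed to 137 and 128 CPM in replicates 1 and 3 and to 832 CPM in replicate 2. Ctrl replicate 2, Sham_solvent replicate 3 and NPP_herb replicate 3 summed to 836, 888 and 842 CPM. The mean scores of the 36 proliferation genes in these libraries were 0.36, -0.06 and 0.13. Scores of satellite glia and myelinating Schwann cells in Ctrl_solvent lay between -0.20 and -0.03. The part of any of these cells in the levels of the proliferation genes was not tested.

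**Figure D4:**
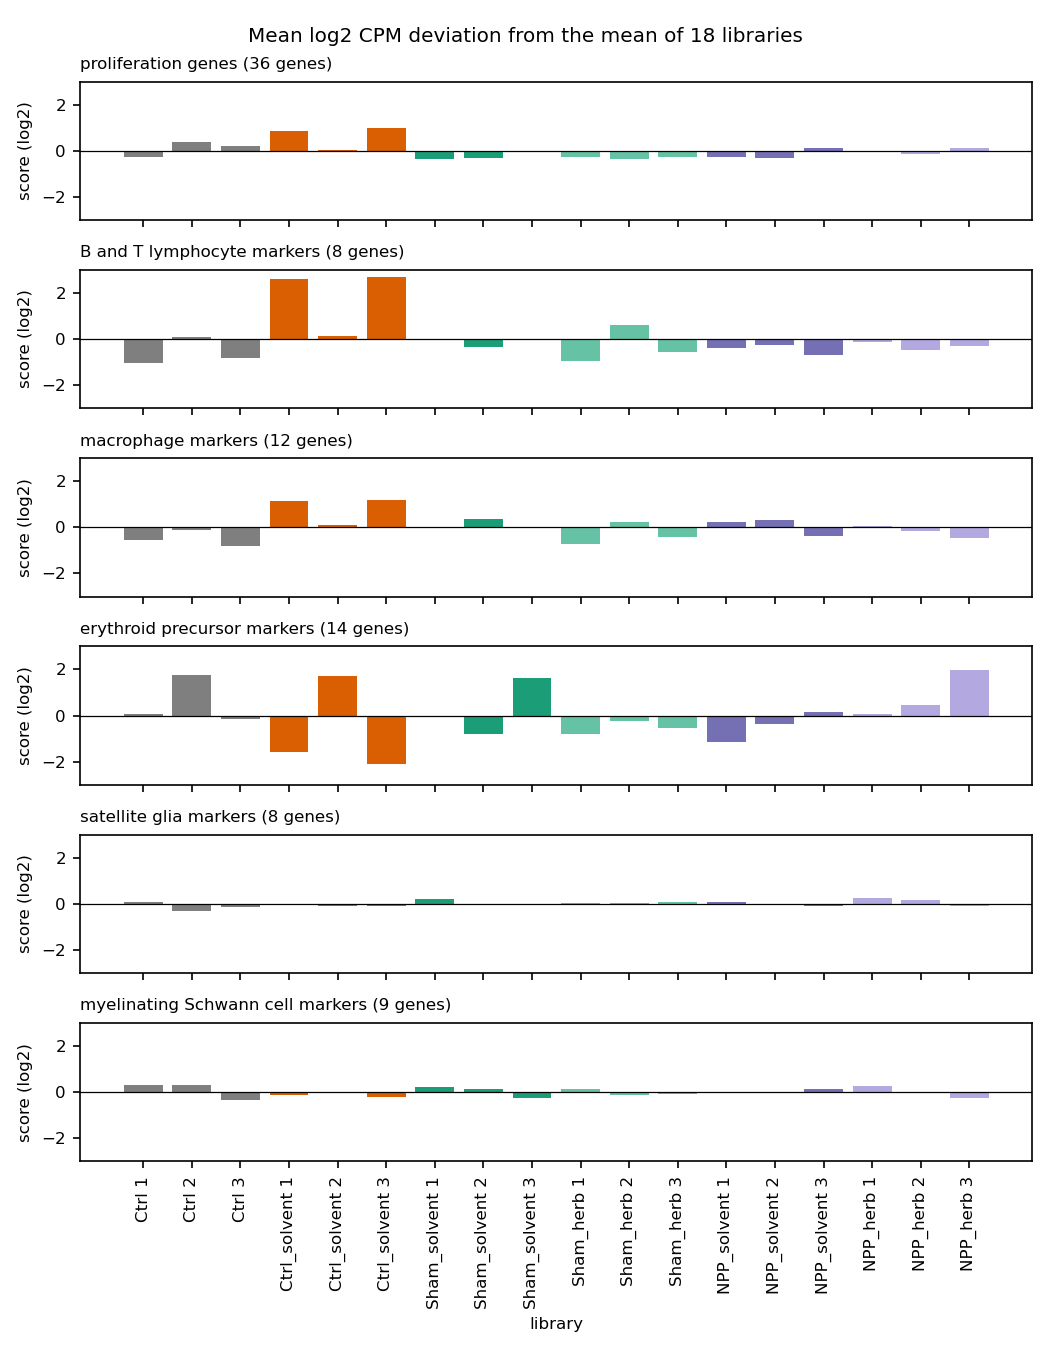
Mean log2 CPM deviation from the mean of the 18 libraries for the 36 proliferation genes and for marker lists of 5 cell types (number of tested genes in brackets), 1 bar per library, coloured by group. Ctrl_solvent replicates 1 and 3 have the 2 highest bars for proliferation (0.85 and 0.98), lymphocytes (2.61 and 2.68) and macrophages (1.15 and 1.20) and the 2 lowest for erythroid precursors (-1.60 and -2.11).

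The neuropathic pain state was compared with Sham under solvent, the comparison that asks what the model itself changed. The 36 genes were close to even: 23 had a positive log2 fold change (51.3% of all genes) and 13 a negative one, with a median of 0.06 against 0.01 over all genes. An adjusted p under 0.05 was reached by 0 of 36 and 0% of all genes in edgeR and by 0 genes in DESeq2. At an unadjusted p under 0.05 there were 0 of 36, against 5.67% of all genes (967 genes in edgeR and 1139 in DESeq2). Groups did not overlap for Mcm2, Mcm5, Aurkb and Kif23, 4 of 36, all higher in NPP_solvent, against 4.44% of all genes. Mcm2 (chromosome 4) had 7.37, 6.52 and 7.12 CPM in NPP_solvent and 4.59, 5.44 and 5.74 in Sham_solvent (0.41 ± 0.20, adjusted p = 0.755, edgeR). Mki67 was at 0.15 ± 0.43, Top2a at 0.73 ± 0.53, Cdk1 at -0.27 ± 0.47, Ccnb1 at -0.10 ± 0.26, Mcm6 at -0.07 ± 0.36, Pcna at -0.08 ± 0.14, Rrm2 at -0.21 ± 0.46 and Tyms at 0.10 ± 0.16. Without NPP_solvent replicate 3, the library with a low level of injury genes, 15 of 36 had a positive value and the median was -0.04. It was 0.18 without Sham_solvent replicate 3 (28 positive), 0.15 and 0.14 without NPP_solvent replicates 1 and 2, 0.10 without Sham_solvent replicate 2 and 0.03 without Sham_solvent replicate 1.

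Under herb, NPP_herb was compared with Sham_herb. A positive log2 fold change was found for 29 of 36 genes (49.1% of all genes), with a median of 0.26 against -0.0033 over all genes. In edgeR 0 of 36 passed at an adjusted p under 0.05 (0% of all genes, 238 of which had an unadjusted p under 0.05), and DESeq2 called 2 genes, none of them a member. At an unadjusted p under 0.05, 3 of 36 were higher in NPP_herb, against 0.81% of all genes. Birc5 (chromosome 10), which encodes survivin, had 3.06, 4.74 and 2.57 CPM in NPP_herb and 2.69, 1.44 and 1.60 in Sham_herb (0.84 ± 0.33, adjusted p = 1, edgeR). Ube2c had 0.860, 1.28 and 1.48 CPM against 0.694, 0.379 and 0.523 (1.18 ± 0.50). Nusap1 (chromosome 3), which bundles spindle microtubules, had 1.93, 1.51 and 1.14 CPM against 0.607, 0.835 and 1.05 (0.87 ± 0.37). In Ube2c and Nusap1 every NPP_herb library was above every Sham_herb library, and in Birc5 they overlapped. Groups were apart in this direction for 6 of 36 (also Mcm4, Rrm1, Rrm2 and Top2a), against 3.18% of all genes. Mki67 (0.63 ± 0.43), Top2a (0.90 ± 0.54) and Cdk1 (0.70 ± 0.47) were positive without reaching an unadjusted p of 0.05. Mcm6 (0.32 ± 0.37), Rrm2 (0.32 ± 0.46), Mcm2 (0.21 ± 0.21), Ccnb1 (0.07 ± 0.26), Tyms (-0.02 ± 0.16) and Pcna (-0.13 ± 0.14) lay within about 1 SE of 0. Sham_herb replicate 2 held the lowest Birc5 and Ube2c values. Without it, 0 of 36 had an unadjusted p under 0.05 (241 of 17458 genes in either direction). Without NPP_herb replicate 3, low in injury genes, 2 had (447 of 17390). In the latter case the median was 0.13 and 25 of 36 were positive.

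With both treatments pooled, 6 NPP against 6 Sham libraries gave a median of 0.16 over the 36 genes, 29 of them positive (49.4% of all genes). No gene had an adjusted p under 0.05, neither in edgeR (0 of 36, 0% of all genes, 432 at an unadjusted p under 0.05) nor in DESeq2 (483 at an unadjusted p under 0.05). In edgeR, 5 of 36 had an unadjusted p under 0.05 and were higher in NPP, against 1.43% of all genes: Aurkb (0.84 ± 0.35), Prc1, a crosslinker of the central spindle (0.64 ± 0.29), Nusap1 (0.57 ± 0.26), Mcm2 (0.31 ± 0.14) and Top2a (0.82 ± 0.38). All had an adjusted p of 0.998 in edgeR, and the 2 arms overlapped for all 36 genes (0 of 36 apart and higher in NPP, against 0.0587% of all genes). The count was 0 without NPP_solvent replicate 3, 1 without NPP_herb replicate 1, Sham_herb replicate 2 or Sham_solvent replicate 1, 2 without NPP_herb replicate 3, NPP_solvent replicate 1 or Sham_solvent replicate 2, and 3 without Sham_herb replicate 1. It was also 3 with the replicate block or with FPKM + 0.1 and 1 with FPKM + 1. Without NPP_solvent replicate 3 the median fell to 0.04, with 24 positive, and the other libraries left out singly gave 0.12 to 0.23; with FPKM + 1 it was 0.06. Mki67 was at 0.39 ± 0.30, Cdk1 at 0.22 ± 0.33, Ccnb1 at -0.01 ± 0.18, Mcm6 at 0.13 ± 0.26, Rrm2 at 0.06 ± 0.33, Tyms at 0.04 ± 0.11, Pcna at -0.11 ± 0.10 and Pimreg at 0.01 ± 0.29.

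Whether the decoction altered these genes was asked in each arm. In the NPP arm, 22 of 36 had a positive log2 fold change (47.7% of all genes), with a median of 0.10 against -0.01 over all genes. In edgeR an adjusted p under 0.05 was reached by 0 of 36 and by 0% of all genes, and DESeq2 called 1 gene, not a member. At an unadjusted p under 0.05 there were 2 of 36, against 1.87% of all genes. Pimreg (chromosome 10), also known as Fam64a and named for its binding to the clathrin assembly protein CALM, is expressed in mitosis. It was at 0.449, 0.867 and 0.652 CPM in NPP_solvent and 1.67, 1.78 and 1.66 in NPP_herb (1.36 ± 0.39, adjusted p = 1, edgeR). Every NPP_herb library was above every NPP_solvent library, and the 3 NPP_herb libraries lay closer together than in any other group. Its levels were 1.66, 1.79 and 2.71 CPM in Ctrl, 1.62, 1.79 and 1.40 in Ctrl_solvent, 1.26, 0.727 and 1.11 in Sham_solvent and 0.752, 0.683 and 1.80 in Sham_herb. The NPP_solvent libraries were thus the low group, and the ranges of NPP_herb and Ctrl_solvent overlapped.

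Mcm7 (chromosome 12), the other one, was lower with herb: 9.43, 9.68 and 9.41 CPM in NPP_solvent against 5.32, 7.97 and 6.39 in NPP_herb (-0.54 ± 0.21, edgeR). Its groups did not overlap, and the unadjusted p was over 0.05 without NPP_herb replicate 1. None of the other 5 subunits of the helicase had an unadjusted p under 0.05 in this comparison, and Mcm2 was at -0.21 ± 0.20 and Mcm6 at 0.22 ± 0.37. Mki67 was at 0.25 ± 0.43, Top2a at 0.15 ± 0.52, Cdk1 at 0.84 ± 0.47, Ccnb1 at 0.33 ± 0.26, Rrm2 at 0.74 ± 0.47, Tyms at 0.15 ± 0.16 and Pcna at -0.11 ± 0.14. Groups did not overlap for 4 of 36 that were higher with herb (Pimreg, Rrm2, Ccnb1 and Plk1, against 2.69% of all genes) and for Mcm7 alone among those lower (1 of 36, against 2.61%). Without NPP_solvent replicate 3 the count of 2 became 4 (577 of 17384 genes), 31 of 36 were positive and the median was 0.26. The median of 0.10 was 0.20 without NPP_herb replicate 1, 0.06 without NPP_herb replicate 3, 0.05 without NPP_solvent replicate 1 and 0.01 without NPP_solvent replicate 2.

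In the Sham arm, herb gave 17 positive (50.7% of all genes) and 19 negative values with a median of -0.02 against 0.01 over all genes. An adjusted p under 0.05 was reached by 0 of 36 and 0% of all genes in edgeR and by 0 genes in DESeq2. At an unadjusted p under 0.05 there were 0 of 36, against 9.89% of all genes (1686 genes in edgeR and 1919 in DESeq2). Mki67 was at -0.23 ± 0.43, Top2a at -0.02 ± 0.54, Cdk1 at -0.12 ± 0.47, Ccnb1 at 0.15 ± 0.26, Mcm2 at -0.01 ± 0.20, Mcm6 at -0.17 ± 0.36, Rrm2 at 0.20 ± 0.46, Tyms at 0.26 ± 0.16, Pcna at -0.07 ± 0.14 and Pimreg at 0.08 ± 0.38. The median was -0.10 without Sham_solvent replicate 1 and 0.05 without Sham_solvent replicate 3, so its sign rested on single libraries. Nusap1 was the 1 gene of 36 with all Sham_herb libraries below all Sham_solvent libraries (6.06% of all genes), and Mcm5 the 1 with all above (8.52%).

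The difference between the herb effects of the 2 arms was tested as an interaction. Pimreg alone had an unadjusted p under 0.05 (1.29 ± 0.54, adjusted p = 0.920, edgeR), 1 of 36 against 3.4% of all genes. That p was over 0.05 without Sham_herb replicate 2, Sham_solvent replicate 1 or Sham_solvent replicate 3. A positive difference was found for 25 of 36 (47.7% of all genes), with a median of 0.12. Single libraries moved this median from 0.0017 (without Sham_solvent replicate 3, 18 positive) and 0.0078 (without NPP_solvent replicate 2, 18 positive) to 0.37 (without NPP_solvent replicate 3, 27 positive). It was also 0.05 without NPP_solvent replicate 1, 0.07 without NPP_herb replicate 3, 0.21 without Sham_solvent replicate 1 and 0.26 without NPP_herb replicate 2. None passed at an adjusted p under 0.05 in edgeR (0% of all genes), and DESeq2 called 3 genes, none a member. Pooled over both arms, herb against solvent was positive for 23 of 36 (49.9% of all genes) and had an unadjusted p under 0.05 for 2 of 36, against 5.13% of all genes (0% had an adjusted p under 0.05). These were Mcm7 (-0.45 ± 0.14) and Pimreg (0.72 ± 0.27, no longer so without Sham_herb replicate 3), both with an adjusted p of 0.782 in edgeR and with overlapping arms. Mki67 was at 0.01 ± 0.30 and Top2a at 0.07 ± 0.38 in this comparison.

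How precisely changes could be seen differed within the set. The biological coefficient of variation that edgeR fitted had a median of 0.297 over the 36 genes, against 0.171 over all genes tested. It ran from 0.109 for Rrm1 and 0.136 for Pcna to 0.451 for Bub1b and 0.540 for Cenpf. From the lowest to the highest library, levels of Cenpf spanned 13.9-fold, of Aurkb 12.3-fold, of Ube2c 11.9-fold and of Ccnb2 10.7-fold, while Pcna spanned 1.67-fold and Rrm1 1.27-fold.

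Levels of the genes tended to go together across libraries. Of the 630 pairs among the 36, 588 had a positive Spearman rho over the 18 libraries, with a median of 0.42, and 250 were above 0.5. The points of each pair share libraries and depth. Pairs among all genes were not computed for comparison. Nor were these pairs computed without Ctrl_solvent replicates 1 and 3, the 2 highest libraries for 21 of the 36 genes. The closest pair was Mcm6 with the spindle motor Kif11 (0.93), and Cdc20 with Ccna2 and Top2a with Kif20a both reached 0.86. Top2a was positive with all 35 other genes (median 0.64). Aurka was positive with 20 of 35 (median 0.04), Pcna with 28 (0.16), and Pimreg (0.19) and Tyms (0.21) with 27 each.

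With Mki67 as the reference, Spearman's rho was computed for 17042 genes, with p from 100000 permutations. No gene had an adjusted p under 0.05 (0%; the smallest was 0.170, 831 genes had an unadjusted p under 0.05). Of the 35 other members, 33 were positive, the median rho was 0.55 against -0.0072 over all genes, and 22 had a positive rho with an unadjusted p under 0.05, against 2.66% of all genes. The closest was Bub1b (rho = 0.82, permutation p = 4e-05, adjusted p = 0.341; Pearson r = 0.76, permutation p = 0.0002, adjusted p = 0.131). Cenpe, the kinetochore motor, came next (rho = 0.79, permutation p = 0.00012, adjusted p = 0.682; r = 0.75, permutation p = 0.00012, adjusted p = 0.123). Top2a had rho = 0.74 (permutation p = 0.0006, adjusted p = 0.682) and r = 0.91 (permutation p = 1e-05, the smallest these permutations can give; adjusted p = 0.0568). Mcm6 led the replication genes (rho = 0.68, permutation p = 0.00299, adjusted p = 0.819; r = 0.80, permutation p = 0.00018, adjusted p = 0.123).

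The 2 libraries whose Mki67 level was farthest from the median were Ctrl_solvent replicates 3 and 1. Without them, r was 0.45 for Bub1b (permutation p = 0.0883), 0.70 for Cenpe (permutation p = 0.00267), 0.82 for Top2a (permutation p = 0.00017) and 0.58 for Mcm6 (permutation p = 0.0194), and rho was 0.75, 0.70, 0.64 and 0.54. By r the relation of Bub1b with Mki67 thus rested in part on those libraries, and that of Cenpe and Top2a held without them at an unadjusted p. The median rho of the members became 0.39, and 8 of 35 had a positive rho with an unadjusted p under 0.05 in place of 22 (2.31% of all genes). Within groups, as deviations from group means, the median was 0.49 and the count 20, where 6.03% of all genes had such a rho. The permutations treated these deviations as 18 free values, so their p-values are too small. At the other end, Aurka (-0.11), Tyms (-0.06), Ccnb1 (0.09), Pimreg (0.09) and Pcna (0.15) had a rho near 0 over 18 libraries.

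**Figure D5:**
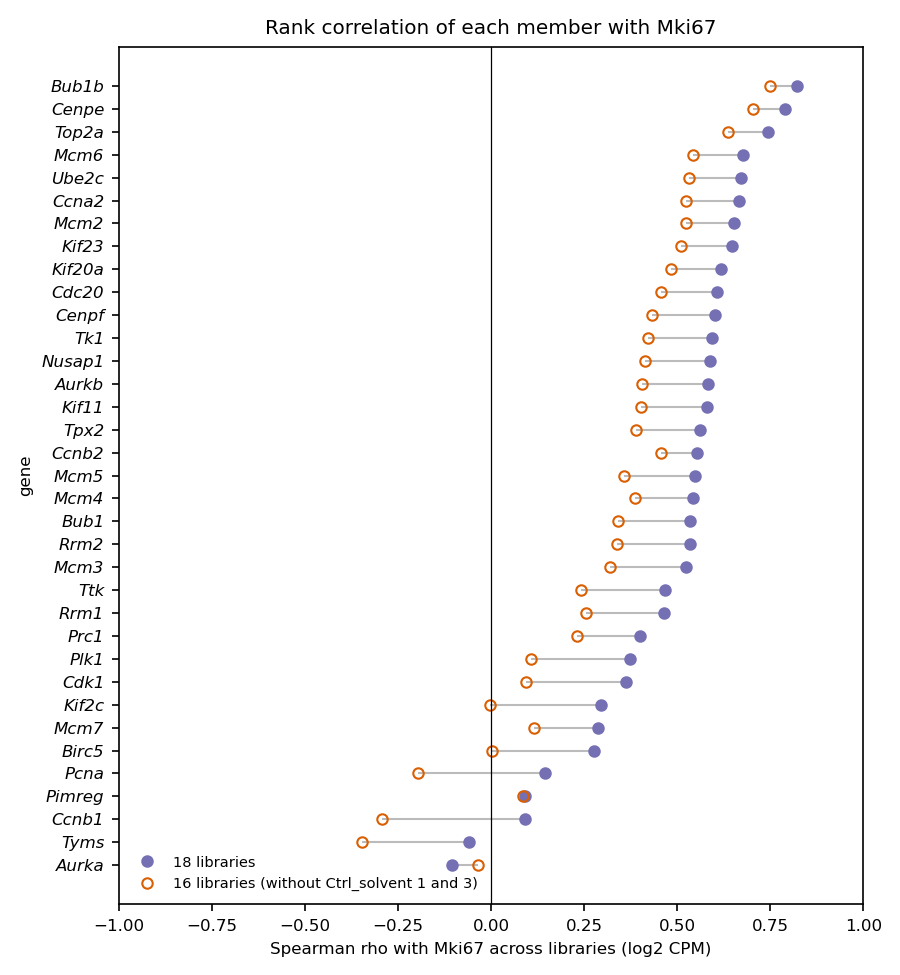
Spearman rho of each of the other 35 genes with Mki67 over 18 libraries (filled) and over 16, without Ctrl_solvent replicates 1 and 3 (open), joined by a line. Bub1b, Cenpe and Top2a stay at 0.64 or above, whereas Pcna, Ccnb1, Tyms, Aurka and Kif2c are below 0 without the 2 libraries.

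Outside the set, the 10 genes of at least 1 CPM with the highest rho to Mki67 over the 18 libraries were Foxj2 (0.77), Dctd (0.76), Fam111a (0.74), Rnf40 (0.74), Piezo1 (0.74), Map3k14 (0.72), Pprc1 (0.71), Cep128 (0.70), Msr1 (0.70) and Postn (0.70). Their adjusted p ran from 0.682 to 0.737, so none passed.

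Other genes of the pathway were taken as a list of 117, all of them tested. Their median log2 fold change in Sham_solvent against Ctrl_solvent was -0.24. Of the 117, 25 had an unadjusted p under 0.05, all lower, against 4.47% of all genes. The other mitosis genes made up 17 of these (of 54), other replication genes 4 (of 29), and G1 cyclins, kinases and inhibitors (of 15) and Rb, E2F and MuvB regulators (of 19) 2 each. The smallest p were those of Hmgb2 (-1.10 ± 0.30), Cenpa, the centromeric histone (-2.23 ± 0.72), and Anln, which builds the contractile ring (-1.48 ± 0.49). In Ctrl_solvent against Ctrl, 15 of 117 were higher at that threshold, against 8.33% of all genes, and 0 were lower. The 15 were led by Ccnd1 (0.39 ± 0.12), Cdkn2b (0.62 ± 0.19) and Cdkn1b (0.40 ± 0.13). None of the 117 had an adjusted p under 0.05 in edgeR, and the counts at an unadjusted p are to be read against the backgrounds given above. In the other contrasts between 2 groups or arms, 2 to 7 of 117 had an unadjusted p under 0.05.

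Between the NPP and Sham groups, 63 of the 117 had a positive log2 fold change under solvent (51.3% of all genes, median 0.02). Under herb 77 had one (49.1% of all genes, median 0.09). At an unadjusted p under 0.05, 2 were higher and 5 lower under solvent, 5.98% of the 117 against 5.67% of all genes. Among them were Cdc25c, the phosphatase that activates Cdk1 (0.56 ± 0.23), Rfc4 (-0.34 ± 0.14) and Gins3 (-0.42 ± 0.18). By the same threshold 3 of 117 were higher under herb, against 0.81% of all genes, and 0 lower. The 3 were the mitotic motor Kif18b (1.32 ± 0.55), the atypical E2F repressor E2f8 (2.50 ± 1.09) and the motor Kif14 (2.23 ± 0.99). E2f8 had a mean of 0.284 CPM over the 18 libraries, so its value rested on few reads. Pooled, 5 of 117 had an unadjusted p under 0.05, as had 432 of 17043 genes. The smallest p belonged to Pbk (1.06 ± 0.43), Kif14 (1.61 ± 0.66) and Gins1 (-0.29 ± 0.13). For herb in the NPP arm, 2 of 117 had an unadjusted p under 0.05, against 1.87% of all genes. Kif18b had 0.15, 0.104 and 0.299 CPM in NPP_solvent and 0.967, 0.613 and 1.06 in NPP_herb (2.20 ± 0.58), and Troap was at -1.46 ± 0.68. The groups did not overlap for Kif18b, on 3 to 11 reads per NPP_solvent library. In the interaction Kif18b was at 2.19 ± 0.81, beside Gins3 (0.68 ± 0.26) and Troap (-2.15 ± 0.94), 3 of 117 against 3.4% of all genes. In the Sham arm the 3 of 117 were Cdkn1c (-0.74 ± 0.29), Rfc4 (-0.32 ± 0.14) and Lin54 (0.25 ± 0.12), against 9.89% of all genes. For herb pooled over arms the 3 of 117 were Kif18b (1.11 ± 0.40), Lin54 (0.22 ± 0.08) and Lin52 (-0.23 ± 0.10), against 5.13%.

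Of the regulators upstream, E2f1 was steady, between 12.6 and 20.1 CPM in all libraries, and its adjusted p for any difference among groups was 0.877 (edgeR). Foxm1 was at -0.55 ± 0.24 in Sham_solvent against Ctrl_solvent and at 0.02 ± 0.24 in Ctrl_solvent against Ctrl. Mybl2, which encodes B-Myb, was at -0.93 ± 0.76 and 0.30 ± 0.75 in the same comparisons. Ccnd1, the cyclin of G1, had 47.9 ± 2.42 CPM in Ctrl_solvent (SD, n = 3) and 32.3 to 45.7 CPM in the other 15 libraries. Its highest level of all was in Ctrl_solvent replicate 2, the library of that group with the lowest scores of mitotic genes. Those scores were near the average of the 18 libraries for mitotic kinases and checkpoint genes (0.10) and for motors and spindle genes (-0.08). The inhibitor Cdkn1b, p27, was at 115, 110 and 118 CPM in Ctrl_solvent and 97.1, 89.3 and 74.2 in Ctrl. The 2 groups did not overlap, as in 8.45% of all genes in that direction. Its mean over the 18 libraries was 112 CPM, near the Ctrl_solvent levels and above every Ctrl library. Rb1 was at 0.27 ± 0.14 in NPP_solvent against Sham_solvent. Cdkn1a, p21, ranged from 3.60 to 13.8 CPM, and its pooled NPP against Sham value was 0.57 ± 0.29. With Mki67, the rho of Mybl2 was 0.67, of Ccnd1 0.64, of Foxm1 0.40, of Cdkn1a 0.21, of E2f1 -0.0072, of Rb1 -0.03 and of Cdkn1b -0.40. Of all 117 genes 92 had a positive rho, with a median of 0.25 against -0.0072 over all genes tested. A positive rho with an unadjusted p under 0.05 was found for 27, against 2.66% of all genes. Without Ctrl_solvent replicates 1 and 3 it was found for 11, against 2.31%.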

How the data were processed

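The 18 libraries, 3 per group, hold mRNA from rat dorsal root ganglia. Per the labels' protocols, libraries came from a KAPA stranded kit and paired-end NovaSeq reads. The submitters' processing notes list HISAT2, DESeq2 and mRatBN7.2, with no version of either tool. The read counter, its use of strand and the annotation are not stated there, and reads of overlapping genes cannot be told apart. The authors' count table gives whole reads for each gene with no normalization. The deposited FPKM table, 25557 of the 25678 genes, was scaled to length and library size by the authors.

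Genes were filtered with filterByExpr of edgeR 4.0.16 (17043 kept), scaled by TMM and tested with the robust quasi-likelihood F test on all 18 libraries, 1 coefficient per group, 12 residual degrees of freedom. P-values were adjusted by Benjamini-Hochberg across the 17043 genes, and 0.05 was the threshold. Scores and correlations used log2 CPM with a prior count of 2. The procedure was tested on simulated data. For edgeR these had the same spread for every gene and changes only in well expressed genes. That spread was below the fitted one of most of the 36 genes, so the recovery of changes in this set was not tested. Alternatives were DESeq2 1.42.0, its size factors, no filter, only the groups compared, a replicate block, limma 3.58.1 on log2(FPKM + 0.1) or log2(FPKM + 1), each library left out, and pairs of libraries left out. No 2 libraries of a group agreed within sampling noise (smallest chi-square per degree of freedom 12.1).

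The 36 genes, the pathway and marker lists, the tests and the named genes were chosen with earlier results of these data known. Named in each comparison were Mki67, Top2a, Cdk1, Ccnb1, Mcm2, Mcm6, Pcna, Rrm2, Tyms and Pimreg and up to 5 others with the smallest unadjusted p under 0.05; of the pathway, 3 per comparison and 7 regulators. Genes named for groups that did not overlap, for low variation or as examples were chosen after their values were seen. The marker lists also covered neutrophils, endothelial, mural, fibroblast, bone, muscle and repair Schwann cells. Per length comparisons used FPKM. Motifs were searched as exact letters in RefSeq windows on GRCr8.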

Additional observations from a re-analysis of the deposited data

How the results depend on the processing

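Counts of genes called were mostly 0 under the alternatives. With the DESeq2 test they were 1 for NPP_herb against NPP_solvent, 2 for NPP_herb against Sham_herb, 35 for Sham_solvent against Ctrl_solvent, 471 for Ctrl_solvent against Ctrl, 2 for herb against solvent pooled, 3 for the interaction and 475 for any difference. For Ctrl_solvent against Ctrl, 1 gene was called with no filter, 1 with FPKM + 0.1 and 1 with FPKM + 1. Leaving out 1 replicate gave 0 to 2 for NPP_herb against Sham_herb, 0 to 252 for Sham_solvent against Ctrl_solvent, 0 to 734 for Ctrl_solvent against Ctrl, 0 to 1 for the interaction and 0 to 319 for any difference; the highest of the 3 largest ranges came without Ctrl_solvent replicate 2. Without Ctrl_solvent replicates 1 and 3 together, any difference called 1 gene. The median over the 36 genes in Sham_solvent against Ctrl_solvent was -0.39 with FPKM + 1, which compresses low values, -1.19 to -0.65 with 1 replicate left out and -0.28 without Ctrl_solvent replicates 1 and 3. In Ctrl_solvent against Ctrl it was 0.22 with FPKM + 1, 0.95 without Ctrl replicates 2 and 3, and -0.15, a change of sign, without Ctrl_solvent replicates 1 and 3, and 0.24 to 0.64 with 1 replicate left out. The cause of these changes was not tested. The 303 other summary values compared with an alternative stayed in their class. For a count this meant an equal count or a ratio of at most 1.5. For a median it meant a change below 0.274, the pooled SD within groups of the members' median deviation. That limit was wider than every median among the NPP and Sham contrasts, so such a median could change sign and stay in its class. Single genes were followed here for up to 5 members per comparison, those with the smallest unadjusted p under 0.05. Of their log2 fold changes, 349 kept their sign without passing the threshold. Another 13 passed the threshold under an alternative, all in the 2 comparisons with Ctrl_solvent. Over all 36 genes, DESeq2 called 2 members in Sham_solvent against Ctrl_solvent and 1 in Ctrl_solvent against Ctrl. Without Ctrl_solvent replicate 2, edgeR called 8 in each. In the test of any difference among groups 8 members passed with DESeq2 and 6 without Ctrl_solvent replicate 2.

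Replicate numbers did not pair the samples: deviations of same-numbered libraries correlated at a median of 0.008, 9 of 45 pairs were over 0.1 and 4 of 18 libraries correlated best with their own number. With the replicate block, 0 genes were called in each comparison, and 24 members had an unadjusted p under 0.05 in Sham_solvent against Ctrl_solvent (1019 of 17043 genes did, in either direction). In the correlation with Mki67, 29 genes were called, 1 of them a member, Top2a (rho = 0.83, adjusted p = 0.0442, permutation). The permutations shuffled deviations from group and replicate means as 18 free values, so these p-values are too small. By them 2180 of 17042 genes had an unadjusted p under 0.05, against 831 for levels not adjusted for group or replicate. Members with a few reads per library are limited by counting.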
